A study of Mus musculus with 2 samples.

Results

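The genes described here are 10 contractile genes that are commonly used to recognise myofibroblasts, Acta2, Tagln, Myl9, Cnn1, Cnn2, Tpm1, Tpm2, Actn1, Des and Pdlim3. They were taken by name from the 22 tables of the series, which together name 15181 genes. All 10 were found in each of the 4 fibroblast subcluster tables, and 5 of them were found in at least 1 of the 18 cluster tables. The series holds 2 droplet single cell RNA sequencing libraries of interstitial cells from cardiac ventricles, 1 per genotype. The control library came from PostnMCM mice, in which the tamoxifen-inducible Cre MerCreMer is made from the Postn locus, and the other came from Yapfl/fl;Wwtr1fl/+;PostnMCM mice, in which Cre can remove both alleles of Yap and 1 allele of Wwtr1 (the gene of TAZ). All mice were adults that carried the R26-eGFP transgene, underwent permanent ligation of the left anterior descending artery (MI) and were fed chow with 0.4 g/kg tamoxifen citrate. The labels give 6 days after MI for the collection of hearts, whereas the methods of the study name the following day. Cre from Postn is active in cells that express Postn after injury and not in every fibroblast, and the number of hearts behind each library is not given in the sources used here.

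Contractile genes encode the parts of the stress fibre, a bundle of actin filaments that myosin II pulls on. When cardiac fibroblasts turn into myofibroblasts after MI they assemble these bundles, anchor them at adhesions and pull on the matrix of the growing scar. Many contractile genes are driven by SRF, which binds CArG boxes and is switched on when actin polymerises, and YAP and TAZ respond to the same tension and act on DNA through TEAD factors. The question of the comparison is which transcripts differ in fibroblasts when Yap and Wwtr1 are targeted in Postn-expressing cells.

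Promoters of the members bear on that question, because TEAD and SRF are the factors through which tension is read. Of the 10 members, 9 had a promoter in the RefSeq table (build GRCm38.p6, 250 bases before to 50 after the start), and Tagln had none. The TEAD core GGAATG, searched on both strands, was in 3 of the 9 (Acta2, Pdlim3 and Tpm1), against 14.7% of all 32851 promoters in that table. The CArG box was in 2 of the 9 (Myl9 and Cnn2), against 1.63% of all promoters, and no member held both motifs. The CArG box was searched in its strict form with no mismatch, so boxes with a mismatch, such as those known in the Acta2 promoter, were not counted, and no match says only that the strict letters are not in the window. The 250 bases before the start are printed for Acta2, Pdlim3, Myl9 and Des, which have both a promoter in the table and a difference of at least 20 points in some subcluster, with positions from an exact and unique match to the same chromosome of GRCm39, and capitals mark motif matches. Acta2 is at chr19:34232774-34233023, minus strand; Pdlim3 is at chr8:46338274-46338523, plus strand. The window of Myl9 is chr2:156617134-156617383, plus strand, and that of Des, which held neither motif in the forms searched, is chr1:75336686-75336935, plus strand.
Acta2: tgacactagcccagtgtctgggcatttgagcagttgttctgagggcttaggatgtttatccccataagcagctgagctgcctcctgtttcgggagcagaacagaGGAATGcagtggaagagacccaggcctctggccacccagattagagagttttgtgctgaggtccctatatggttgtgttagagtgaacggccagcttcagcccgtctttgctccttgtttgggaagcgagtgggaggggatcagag
Pdlim3: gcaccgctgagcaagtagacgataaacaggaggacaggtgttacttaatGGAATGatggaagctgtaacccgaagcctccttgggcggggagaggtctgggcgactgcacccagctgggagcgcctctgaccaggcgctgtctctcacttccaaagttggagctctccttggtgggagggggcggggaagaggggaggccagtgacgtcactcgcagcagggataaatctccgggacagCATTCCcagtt
Myl9: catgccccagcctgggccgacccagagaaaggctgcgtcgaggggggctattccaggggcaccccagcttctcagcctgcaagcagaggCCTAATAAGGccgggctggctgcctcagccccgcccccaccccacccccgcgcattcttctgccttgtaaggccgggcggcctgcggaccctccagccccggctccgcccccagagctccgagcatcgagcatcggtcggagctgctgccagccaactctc
Des: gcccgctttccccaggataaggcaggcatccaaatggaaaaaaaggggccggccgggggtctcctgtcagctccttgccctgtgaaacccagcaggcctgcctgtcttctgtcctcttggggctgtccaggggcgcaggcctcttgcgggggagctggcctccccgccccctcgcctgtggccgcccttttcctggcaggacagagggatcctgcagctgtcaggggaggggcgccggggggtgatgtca
Counted from the RefSeq start, the TEAD core of Acta2 began at -146, those of Pdlim3 at -201 and, on the other strand, -11, and the CArG box of Myl9 at -161. All 4 windows overlap the span that GENCODE gives these genes, because its longest transcripts begin further upstream. A match is a stretch of letters and not a measured binding site, and no binding was measured here.

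The value used for each gene is the share of cells of a subcluster in which the corrected count was above 0, in each library. There is 1 library per genotype, so no test of genotype was possible, no value carries an error, and all differences describe these 2 libraries. How many cells stand behind a share, and how deeply each was read, is not in the tables. The authors' corrected counts adjust for the depth of each cell, and no further step was taken here to bring the shares to equal depth. As a guide to precision, the control shares of subclusters 0, 3, 4 and 5 took 146, 31, 41 and 24 distinct values over all 15059 genes, with median steps of 0.7, 3.3, 2.5 and 4.3 percentage points. In the library labelled depleted they took 33, 24, 11 and 22 distinct values, with median steps of 3.1, 4.3, 10 and 4.8 points. The few steps show that the shares rest on few cells, fewest in subcluster 4 of the library labelled depleted, whose values are the least precise. Over genes able to differ by 20 points, the median differences were 0.3, -0.9, 2.5 and 2.3 points for subclusters 0, 3, 4 and 5. Subclusters were drawn by the authors from the same cells and genes, so values set side by side between subclusters are a description. Shares at or near 100% cannot show a change in the amount of transcript per cell.

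The targeted transcripts were not uniformly lower, so the name "labelled depleted" is used for the library of the floxed mice. Yap1 was counted in 46.2%, 23.3%, 57.5% and 30.4% of control cells in subclusters 0, 3, 4 and 5, and in 56.2%, 43.5%, 40% and 47.6% of cells labelled depleted. Wwtr1 went from 81.4% to 90.6%, from 93.3% to 91.3%, from 80% to 60% and from 100% to 85.7% in the same order. These libraries count the 3′ ends of transcripts, and whether the excised exons lie there was not examined. The libraries also stood apart in a pseudogene of ferritin light chain, Ftl1-ps2, with shares of 80% to 100% among cells labelled depleted and of 0% to 2.5% among control cells.

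Of the fibroblast markers, Col1a1 and Dcn were counted in 100% of cells of both libraries in all 4 subclusters, whereas Tcf21, a marker of resident cardiac fibroblasts, was in 2.1% of control cells and 0% of cells labelled depleted in subcluster 0 and in 6.7% and 8.7% in subcluster 3. Tcf21 was in 35% and 20% of cells in subcluster 4 and in 43.5% and 81% in subcluster 5, control first. Pdgfra was in 38.6%, 66.7%, 85% and 87% of control cells of subclusters 0, 3, 4 and 5. Its shares among cells labelled depleted were 71.9%, 87%, 80% and 81%. The shares of 9 fibroblast markers summed to 533.8 to 795.8 in the control library and 565.6 to 852.5 in the other (sums in percent). Subclusters 0, 3 and 4 also carried markers of the epicardium, with Wt1 in 92.5% to 97.2% of control cells and 96.9% to 100% of cells labelled depleted. Msln, another of these markers, was in 43.3% to 50.3% and 39.1% to 62.5% of cells there, control first. In subcluster 5 Wt1 was in 73.9% of control cells and 14.3% of cells labelled depleted. Postn, the periostin gene that marks myofibroblasts and drives Cre, was counted in 25.5%, 40% and 10% of control cells of subclusters 0, 3 and 4 and in 28.1%, 13% and 20% of cells labelled depleted. Only in subcluster 5, with 87% and 100%, was Postn counted in most cells of both libraries. The subclusters are called by their numbers, since Postn was counted in a minority of cells of the other 3. Of 7 mural cell markers in the tables, Rgs5 was at 0 in both libraries of subclusters 0 and 4. Myh11, the smooth muscle myosin, was at 0 in the control library of subclusters 3, 4 and 5, and at 4.3%, 0% and 4.8% in the other. Kcnj8 was counted more often, in 15.9%, 16.7%, 12.5% and 17.4% of control cells of subclusters 0, 3, 4 and 5. Among cells labelled depleted its shares were 37.5%, 21.7%, 20% and 0%. In subcluster 5 Abcc9 was in 21.7% and 0% of cells and Notch3 in 13% and 47.6%, control first.

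The 10 genes did not move as a block. Acta2, which encodes the smooth muscle actin that defines myofibroblasts, had a higher share in the library labelled depleted in 4 of 4 subclusters, in subcluster 4 by less than 1 step of its shares, and Des, which encodes the intermediate filament protein desmin, had a lower share in 4 of 4. Tagln, Myl9 and Pdlim3 were higher by at least 20 points in the Postn-rich subcluster 5 and nowhere else, and Tpm1, Tpm2 and Actn1 were counted in nearly all cells of both libraries. Over the 10 members the median differences were 0.55, 1.2, -1.25 and 2.95 points for subclusters 0, 3, 4 and 5. These medians include members at or near 100% in both libraries, and over the members able to differ by 20 points they were -1, 3.5, -5 and 22.9, so the direction turned in subcluster 0. As a mean over the 10 members the value turned in subcluster 3, to -0.79 points.

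**Figure D1:**
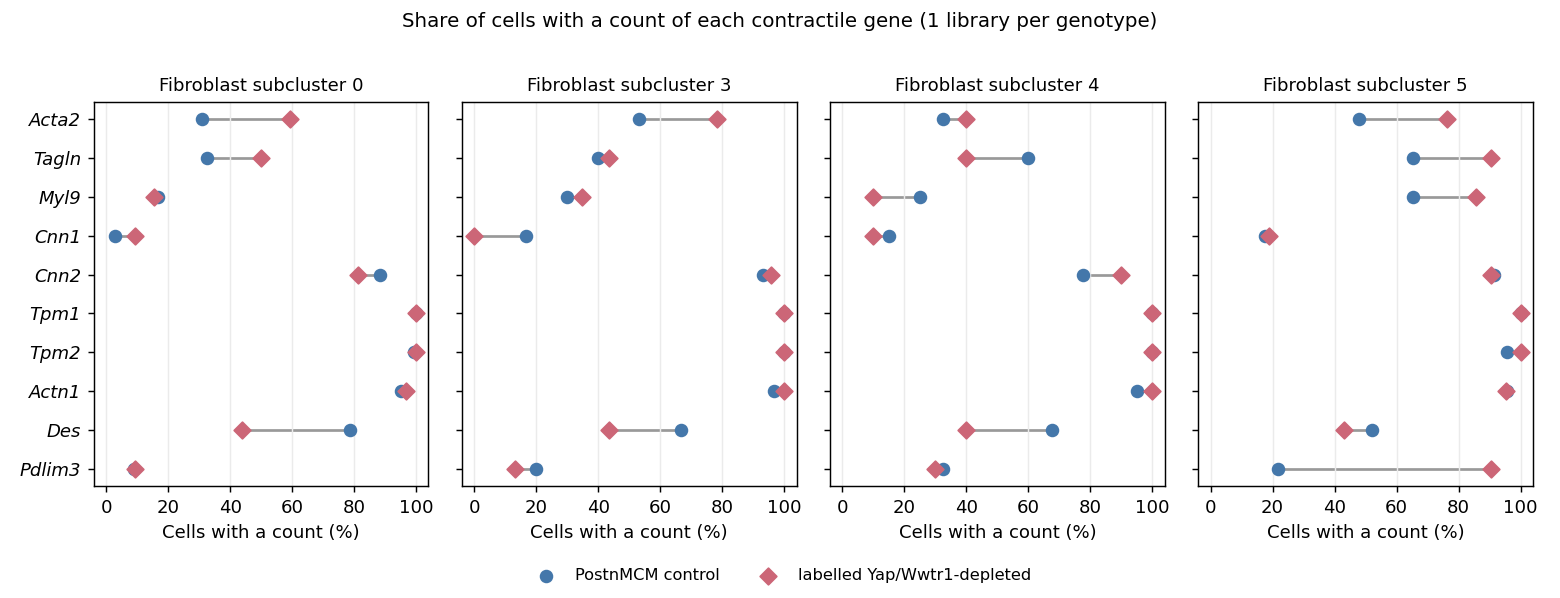
Share of cells with a count (%, x axis) of each of the 10 contractile genes (y axis) in 4 fibroblast subclusters. Circles are the PostnMCM control library and diamonds the library labelled Yap/Wwtr1-depleted, joined by a line, 1 library each and no error bars. Acta2 diamonds lie to the right of the circles in all 4 panels, Des diamonds to the left, and Pdlim3 has the longest line, from 21.7% to 90.5% in subcluster 5.

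Acta2 (chromosome 19, 34217737 to 34232990, GRCm39) was counted in 31% of control cells and 59.4% of cells labelled depleted in subcluster 0. In subcluster 3 it was in 53.3% of control cells and 78.3% of cells labelled depleted, and in subcluster 5 in 47.8% and 76.2%. Subcluster 4 showed a smaller difference, from 32.5% to 40%, which is less than 1 median step of the shares in the library labelled depleted. The 3 larger differences were 28.4, 25 and 28.4 points. In subcluster 0, 50 of the 9395 genes that could pass the limit (0.532%) were higher by at least as much, but in subcluster 5 433 of 9141 did (4.74%). Among these 4 subclusters the Acta2 shares of subclusters 3 and 5 were the highest in both libraries, and in the library labelled depleted these shares lay less than 1 step apart. Mural cells also make Acta2, and the 7 mural markers in the tables summed to 36.6 and 56.2 in subcluster 0, 30 and 38.9 in subcluster 3, 40 and 60 in subcluster 4 and 86.9 and 71.5 in subcluster 5 (sums of shares in percent, control first). The sums were higher beside Acta2 in the first 3 and lower in subcluster 5. In subcluster 0 the markers did not move alike, since Kcnj8 went from 15.9% to 37.5% and Abcc9 from 2.1% to 12.5%, but Cspg4 went from 11.7% to 3.1%, Notch3 from 2.8% to 0% and Mcam from 3.4% to 0%, with a median difference of 0 points over the list. Rgs5, a pericyte marker, stayed between 0% and 8.7% throughout. Their part in the Acta2 difference was not tested.

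Tagln encodes transgelin, an actin-bundling protein of smooth muscle that often accompanies Acta2. It lies on chromosome 9, 45840909 to 45847404. In subcluster 0 it was in 32.4% of control cells and 50% of cells labelled depleted, and subcluster 5 held 65.2% and 90.5%. In subcluster 3 the shares were nearly equal, at 40% and 43.5%. Subcluster 4 went the other way, from 60% to 40%, a difference of exactly 20 points in the subcluster with the coarsest shares. Differences of that size were common, since 11.1% of the genes that could pass the limit were lower by at least as much in subcluster 4, and 6.85% were higher by at least the 25.3 points of Tagln in subcluster 5. Acta2 and Tagln were both higher, by more than 1 step, in the library labelled depleted in subclusters 0 and 5, whereas the Tagln shares of subcluster 3 and the Acta2 shares of subcluster 4 differed by less than 1 step and give no direction.

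Myl9, the regulatory light chain of smooth muscle and non-muscle myosin II, spans 156617084 to 156623579 on chromosome 2. It was counted in 65.2% of control cells and 85.7% of cells labelled depleted in subcluster 5, a difference of 20.5 points that drops under the limit, to 18.2, when the median difference of that subcluster is taken off. Of the genes that could pass the limit there, 11.8% were higher by at least as much. In subclusters 0 and 3 its shares were 16.6% and 15.6%, and 30% and 34.8%. In subcluster 4 it was lower in the library labelled depleted, at 10% against 25%. Subcluster 5 had the highest share of cells with Myl9 in both libraries, and the range over subclusters was 48.6 points in the control library and 75.7 points in the library labelled depleted.

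Pdlim3 showed the greatest difference of any member. The gene encodes ALP, a PDZ and LIM domain protein that binds alpha-actinin at Z-discs and stress fibres, and spans 46338398 to 46372689 on chromosome 8. In subcluster 5 it was counted in 21.7% of control cells and 90.5% of cells labelled depleted, a difference of 68.8 points that 4 of the 9141 genes that could pass the limit reached, Pdlim3 included (0.0438%). No such difference appeared elsewhere, with 9% and 9.4% in subcluster 0, 20% and 13% in subcluster 3, and 32.5% and 30% in subcluster 4. In the control library subcluster 4 had the highest Pdlim3 share, whereas in the library labelled depleted it was subcluster 5. Notch3, a mural cell receptor, was also higher there, from 13% to 47.6%, while the other defining mural markers Abcc9 and Rgs5 went from 21.7% to 0% and from 8.7% to 4.8%. The epicardial marker Wt1 went from 73.9% to 14.3% of cells in the same subcluster. The part of these markers in the Pdlim3, Tagln and Myl9 differences of subcluster 5 was not tested.

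Des (chromosome 1, 75320511 to 75345223) was the member counted in fewer cells of the library labelled depleted in every subcluster. Its share was 78.6% in control cells and 43.8% in cells labelled depleted in subcluster 0, 66.7% and 43.5% in subcluster 3, and 67.5% and 40% in subcluster 4. In subcluster 5 the difference was smaller, from 52.2% to 42.9%. The control shares spanned 26.4 points over the subclusters, whereas the shares in the library labelled depleted lay within 3.8 points of each other. In subcluster 0 only 15 of 9395 genes that could pass the limit were lower by as much (0.160%). In subclusters 3 and 4, 4.97% and 4.64% of such genes were.

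Desmin is abundant in heart muscle, so cardiomyocyte markers were read beside it. The 8 cardiomyocyte markers in the tables summed to 29.6, 43.2, 42.5 and 25.9 in control cells of subclusters 0, 3, 4 and 5 and to 6.2, 4.3, 40 and 14.4 in cells labelled depleted (sums of shares in percent), so the sums were lower beside Des, although Tnni3 went from 0% to 20% in subcluster 4. No cardiomyocyte marker exceeded 20% of cells, and in the control library of subcluster 0, where Des was in 78.6% of cells, the highest was in 9% of cells. Summed markers of macrophages and neutrophils were also lower in the library labelled depleted in each subcluster. The sums were 260.8 to 335.3 against 185.7 to 260 for 5 macrophage markers and 208.7 to 240 against 103.1 to 133.3 for 4 neutrophil markers. Single markers did not all go that way. In subcluster 4 C1qb went from 77.5% to 10%, but C1qa went from 67.5% to 80% and Csf1r from 57.5% to 70%. C1qa was also higher in subcluster 5, Csf1r in subclusters 3 and 5, and Csf3r in subcluster 5. The other macrophage and neutrophil markers were lower in every subcluster. The 4 endothelial markers summed to 12.9 to 75 and 19.1 to 60. Epicardial markers moved with Des less evenly. The 9 epicardial markers summed to 685.3 and 737.5 in subcluster 0, 660 and 608.7 in subcluster 3, 672.5 and 600 in subcluster 4 and 217.3 and 52.5 in subcluster 5 (control first), so in subcluster 0, where the Des difference was largest, they were higher in the library labelled depleted. The part of free RNA and of cell makeup in the Des difference was not tested.

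The calponins bind actin and hold back myosin. Cnn1, the smooth muscle form, was rare, in 2.8%, 16.7%, 15% and 17.4% of control cells of subclusters 0, 3, 4 and 5 and in 9.4%, 0%, 10% and 19% of cells labelled depleted. Its largest difference was -16.7 points in subcluster 3, where its mean share was too low for a difference of 20 points to be possible. Cnn2, the form found in many non-muscle cells, was common, in 77.5% to 93.3% of control cells and 81.2% to 95.7% of cells labelled depleted, and its differences ran from -7.1 to 12.5 points.

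Tropomyosins lie along actin filaments and set which myosins may bind, and alpha-actinin 1 (Actn1) crosslinks the filaments. Tpm1 was counted in 100% of cells in all 8 values. Tpm2 lay between 95.7% and 100%, and Actn1 between 95% and 100%. For these 3 genes the shares were at or near their ceiling in both libraries, and the shares could not have shown a difference in level per cell.

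Read against all genes of the same table, the counts of members past the limit were as follows. Only genes whose mean share over both libraries lies between 10% and 90% can differ by 20 points, which left 5, 5, 7 and 6 members in subclusters 0, 3, 4 and 5. In subcluster 0, 1 member (Acta2) was higher, where 2.78% of all such genes were, and 1 (Des) was lower, where 2.20% were. Subcluster 3 had the same members on the same sides, against 5.03% of genes higher and 7.86% lower. Subcluster 4 had 0 members higher and 2 lower (Tagln and Des), against 14.9% of genes higher and 11.1% lower. In subcluster 5, 4 members were higher (Acta2, Tagln, Myl9 and Pdlim3) and 0 lower, against 12.4% of genes higher and 7.71% lower.

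**Figure D2:**
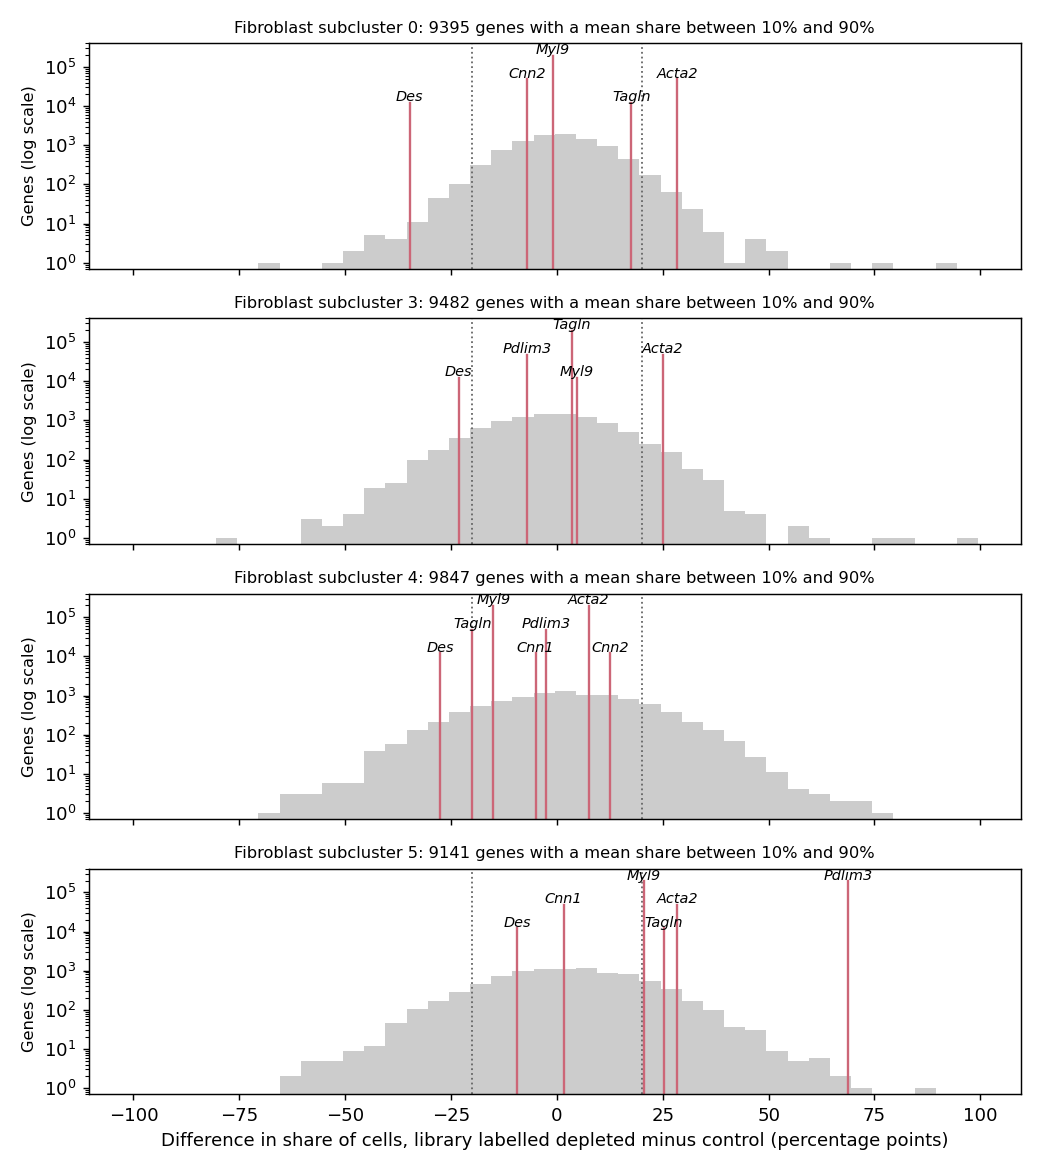
Difference in the share of cells (library labelled depleted minus control, percentage points, x axis) over all genes with a mean share between 10% and 90% (grey bars, number of genes on a log y axis) in each of 4 fibroblast subclusters. Red lines mark the contractile genes in that range, their height carries no value, and dotted lines mark the limit of 20 points; Pdlim3 in subcluster 5 lies at 68.8 points and Des in subcluster 0 at -34.8.

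The rest of the contractile machinery was read in the same way. Lists were drawn up of other contractile and stress fibre genes, of which 54 were in the subcluster tables (Lmod1 and Actg2 were not), and 25, 24, 27 and 25 of them could pass the limit in subclusters 0, 3, 4 and 5. None was higher by 20 points in subclusters 0, 3 and 5, and 3 were in subcluster 4, while 1, 4, 3 and 4 were lower, which is 4%, 16.7%, 11.1% and 16% of those that could pass. The 3 higher in subcluster 4 are 11.1% of those that could pass there, and over all genes the shares higher were 2.78%, 5.03%, 14.9% and 12.4%. Over all genes the shares lower were 2.20%, 7.86%, 11.1% and 7.71%. The listed counts are of 0 to 4 genes, and their difference from all genes was not tested. Their median differences over all 54 were 1.35, 0, 2.5 and 0 points. In subcluster 5, where 4 of the 10 members were higher, only 4 of the 10 smooth muscle contractile genes in the table could pass the limit, of which 0 were higher and 1, smoothelin (Smtn), was lower, from 78.3% to 57.1%.

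Among the smooth muscle contractile genes the greatest mean differences over the subclusters were those of Csrp1, Synpo2 and Ppp1r14a. Csrp1, a LIM protein of stress fibres, was counted in 86.2%, 86.7%, 72.5% and 87% of control cells of subclusters 0, 3, 4 and 5 and in 87.5%, 95.7%, 90% and 100% of cells labelled depleted. Synpo2 was lower in subcluster 4, at 20% against 50%, and changed sides elsewhere. Myh9, Myh10 and Myl12b, of the non-muscle myosin list, had mean differences of -5, -3.08 and 2.85 points, but only 1 or 2 of that list's 7 genes could pass the limit in a subcluster, and none did.

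PDLIM family members differed from each other. Pdlim4, which like Pdlim3 joins alpha-actinin to stress fibres, was lower in all 4 subclusters, from 86.9% to 81.2%, 83.3% to 65.2%, 82.5% to 60% and 52.2% to 14.3% in subclusters 0, 3, 4 and 5. In subcluster 5 Pdlim3 and Pdlim4 therefore went in opposite directions, by 68.8 and -37.9 points. Pdlim7 was in 83.3% to 92.5% of control cells and 90.5% to 100% of cells labelled depleted, and Fhl3 was higher in subcluster 4, at 30% against 7.5%.

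At adhesions, Tns1, which encodes tensin 1, was lower in subcluster 3, at 26.1% against 70%, and equal at 50% in subcluster 4. Flnc (filamin C) and Pxn (paxillin) had mean differences of -8.72 and 5.22 points. Of the intermediate filament genes listed beside desmin, Nes (nestin) was lower in subcluster 3, at 13% against 46.7%, but went from 39.1% to 52.4% in subcluster 5. Synm (synemin, a partner of desmin) went from 6.7% to 26.1% in subcluster 3, was at 20% against 0% in subcluster 4, where shares are the least precise, and went from 30.4% to 23.8% in subcluster 5. Lmna had a mean difference of -1.05 points.

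Of the regulators, Tgfb1i1, which encodes the adhesion protein Hic-5, was lower in all 4 subclusters, past the limit in subcluster 3 (83.3% to 60.9%) and subcluster 4 (75% to 50%). Mrtfb, a cofactor of SRF, had a mean difference of 5.95 points and did not pass the limit in any subcluster.

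**Figure D3:**
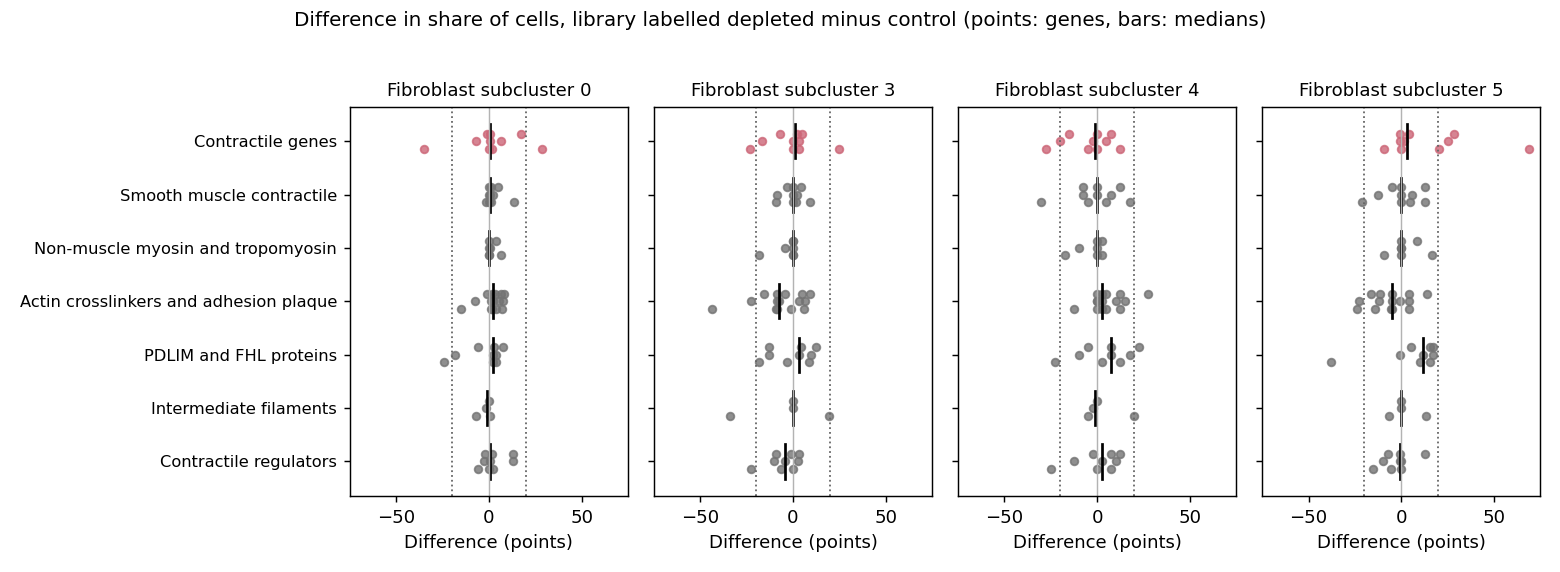
Difference in the share of cells (library labelled depleted minus control, percentage points, x axis) for the 10 contractile genes (red) and lists of related genes (grey) in 4 fibroblast subclusters. Each point is 1 gene, black bars are list medians and dotted lines the limit of 20 points; the red point at 68.8 in subcluster 5 is Pdlim3, and the grey point at -43.9 in subcluster 3 is Tns1.

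In the undivided fibroblast cluster (cluster 5), 3 of the 10 members were among the 605 genes listed, out of the 15181 genes named in all 22 tables. Des was in 56.7% of control cells and 28.3% of cells labelled depleted, Acta2 in 21.8% and 40.1%, and Myl9 in 12.4% and 26.2%. Acta2 and Des had the same direction in the subclusters where their shares differed by more than 1 step, whereas Myl9 was higher in subclusters 3 and 5 and lower in subcluster 4. The cluster was normalised apart from its subclusters and also holds cells of subclusters 1 and 2, not analysed here, and the mix of subclusters in each library is not given by the tables, so a difference in mix and a difference within cells cannot be told apart there and the levels are not comparable between the tables.

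Outside fibroblasts only Cnn2 and Actn1 were listed, both genes that blood cells also use. Cnn2 was higher in cluster 0 (macrophages and monocytes), at 53.3% against 40.7% of control cells, and lower in cluster 10 (T cells), at 18.8% against 36.4%, and in cluster 15, which the study left without a name, at 50% against 71.9%. Actn1 was lower in all 3 clusters that listed it, at 44.5% against 66.7% in cluster 6, 36.4% against 55% in cluster 17 (dendritic cells) and 82.4% against 100% in cluster 18 (neutrophils). The number of cells of each library behind these cluster shares is not given by the tables, so their precision is unknown. The remaining 11 cluster tables listed 0 members, and 5 members (Tagln, Cnn1, Tpm1, Tpm2 and Pdlim3) were in no cluster table. The 18 cluster tables listed from 159 to 1914 genes each, out of the 15181 genes named in the series. A gene enters those tables only past the limits on detection and on fold change set in the authors' code, so a missing row is not a value of 0, and how often Acta2 or Des was counted in blood cells is unknown.

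**Figure D4:**
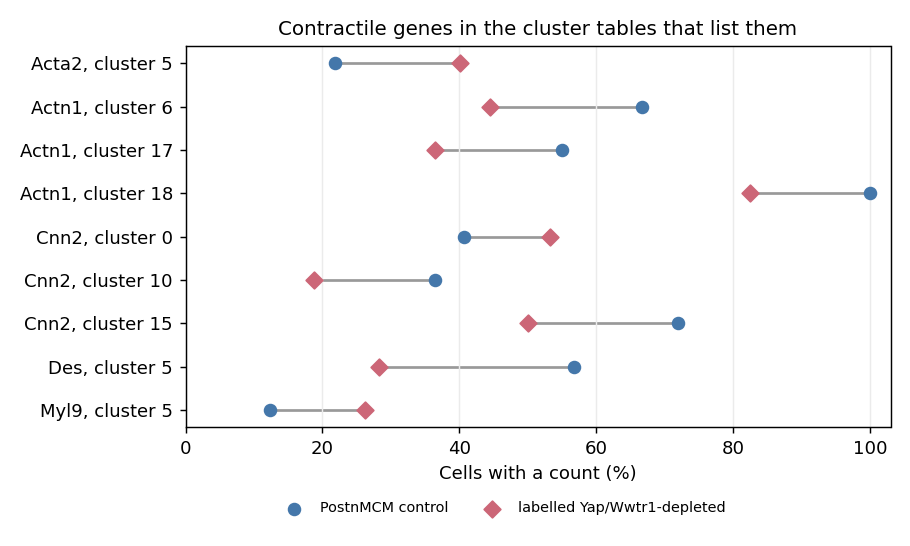
Share of cells with a count (%, x axis) for each of the 9 pairs of contractile gene and cluster that the 18 cluster tables list (y axis). Circles are the PostnMCM control library and diamonds the library labelled Yap/Wwtr1-depleted, 1 library each; Acta2 and Myl9 in cluster 5 and Cnn2 in cluster 0 are higher in the library labelled depleted, and the other 6 pairs are lower.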

How the data were processed

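Viable interstitial cells of cardiac ventricles were sorted and captured on the 10x Chromium system with 3′ chemistry, 1 library per genotype. Per the labels, reads were processed with Cell Ranger 6.1.1 on GRCm39 and with Seurat. The authors combined the libraries without depth normalization, applied SCTransform with the mitochondrial percentage regressed out, clustered the cells, repeated this on the fibroblast cluster, and deposited, for each gene, the fraction of each library's cells whose corrected count exceeded 0. Cluster tables hold only genes with a share of 25% or more in either library and past a fold change limit in the authors' code, whereas subcluster tables hold 15059 genes each without limits. The deposited columns of average log2 fold change, p-value and adjusted p-value are the authors' own comparison and were not used.

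Fractions were turned into percent, and the control share was subtracted from the share in the library labelled depleted. A gene was past the limit at a difference of at least 20 percentage points, and background counts cover genes with a mean share between 10% and 90%. Ratios of shares were taken as log2 with 1 point added to both. No test was run, because each genotype has 1 library, and no interval was given, because the tables give no cell numbers. The tables hold no cell barcodes, and neither methods nor code name a doublet caller, so doublets may remain. Counting was checked on simulated data. The members, lists and limit were chosen with earlier results of these data known. All members were named, and of each related list the 3 genes with the largest mean difference over the subclusters; other related genes (Smtn) and markers were named after their values were seen, and a few genes that these rules name are not reported here. Gene positions are from GENCODE vM39 (GRCm39). Python 3.11.15, pandas 2.3.3 and numpy 2.4.6 were used.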

Additional observations from a re-analysis of the deposited data

Results flagged for a closer look

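Tagln was the only one of the 10 members to pass 20 points upward in 1 subcluster and downward in another. The share of cells with a Tagln count was higher in the library labelled depleted by 25.3 points in subcluster 5, and the difference was -20 points in subcluster 4. Of the genes with a mean share between 10% and 90%, 6.85% and 11.1% differed at least as far in those directions. The difference between the subclusters was not tested, because there is 1 library per genotype.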

How the results depend on the processing

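No paired analysis was possible because each genotype had 1 library. The directions of the 10 differences past the limit were the same on the log2 ratio of shares and after taking off the median difference of the subcluster, where 1 of them (Myl9 in subcluster 5, 18.2 points) dropped under the limit. Leaving out the filter on the mean share changed no count of members. The counts depended on the limit. At 10 points, 2 members were higher in subcluster 0, 2 lower in subcluster 3 and 1 higher and 3 lower in subcluster 4. At 30 points, 0 were higher in subclusters 0 and 3, 0 were lower in subclusters 3 and 4, and 1 was higher in subcluster 5. With a log2 ratio of at least 1, among members with a mean share between 10% and 90%, 0 were higher or lower in subclusters 0 and 3, 1 was lower in subcluster 4 and 1 higher in subcluster 5. Cnn1 is outside that range in subclusters 0 and 3, where its log2 ratios were 1.45 and -4.15. The median over members changed direction under 1 alternative each in subclusters 0 and 3, and kept it in subclusters 4 and 5. Over members that could pass the limit they were -1 (reversed), 3.5, -5 and 22.9 points in subclusters 0, 3, 4 and 5. Centred on the median gene they were 0.25, 2.1, -3.75 and 0.65, and means in place of medians gave 1.25, -0.79 (reversed), -4.5 and 13.83. These shifts follow from which members enter and how they are averaged. The shares say nothing about amounts per cell, and their depth is not given.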

Other observations

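Genes outside the list were ranked by how close their shares were to those of Acta2 and of Des over 8 values (4 subclusters in 2 libraries, so the values share libraries). Closest to Acta2 were Map3k7, Akr1b8, Oard1, Zfp622 and Fam204a, with mean absolute differences of 6.7 to 7.99 points, and none of these encodes a contractile protein. Among the 5 closest to Des were Fcer1g, Cd52, Wfdc17 and Ythdf1, at 4.29 to 6.33 points. Fcer1g, the gamma chain of Fc receptors, and Cd52 are genes of blood cells. Fcer1g was counted in 75.2%, 63.3%, 70% and 52.2% of control fibroblasts of subclusters 0, 3, 4 and 5 and in 37.5%, 52.2%, 30% and 42.9% of fibroblasts labelled depleted. Likeness of shares was not tested and carries no statement on shared control.

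Fhl1, a LIM protein of muscle named after its values were seen, was lower in subcluster 0, at 34.4% against 58.6% of control cells, where 2.20% of all genes with a mean share between 10% and 90% were lower. In the other subclusters it was at 40% and 43.5% (subcluster 3), 12.5% and 30% (subcluster 4) and 73.9% and 85.7% (subcluster 5), control first.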
